A study of Mus musculus with 6 samples.

Results

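Pericytes and vascular smooth muscle cells, together called mural cells, were followed through 10 marker genes in floated adipocytes. The mice carried floxed *Lats1* and *Lats2* alleles, without or with Cre in the fat cell. The 10 marker genes are *Rgs5*, *Kcnj8*, *Abcc9*, *Higd1b*, *Cspg4*, *Pdgfrb*, *Notch3*, *Mcam*, *Myh11* and *Des*. They were taken by gene symbol from a table of 37384 symbols, all 10 were found, and all 10 passed the filter on low counts, as did 15674 genes in total. Among these 10, *Rgs5*, *Higd1b* and *Cspg4* were lower and *Notch3* was higher in libraries labelled L1L2-AKO, while the other 6 did not pass the test.

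Mural cells wrap the outside of blood vessels. Pericytes sit on capillaries and smooth muscle cells on arterioles and larger vessels, and they set vessel tone and keep the endothelium stable. Endothelial cells recruit them with PDGF-B, which binds the receptor PDGFRB on the mural cell, and signal to them through JAG1 and NOTCH3. In white fat, vessels run between the adipocytes, and cells on the vessel wall are one source of new fat cells. The 10 genes are not equally specific. *Rgs5*, *Kcnj8*, *Abcc9* and *Higd1b* are known mainly from pericytes, *Pdgfrb*, *Cspg4* and *Mcam* are also made by fibroblasts, glial precursors or endothelium, and *Des* is made by every kind of muscle.

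The RNA came from inguinal subcutaneous white adipose tissue (scWAT) of male mice at postnatal day 7. Both genotypes carried floxed *Lats1* and *Lats2* alleles (Lats1f/fLats2f/f). The 3 L1L2-FF libraries came from mice without Cre, and the 3 L1L2-AKO libraries from littermates with Cre driven by the *Adipoq* promoter, which is active in adipocytes and is not a mural cell driver. Each library pooled 4 mice, and the adipocytes were floated after collagenase digestion without sorting, so vessel fragments that stayed with the fat also gave RNA. A lower level in such bulk RNA can mean fewer cells or less RNA per cell, and these cannot be told apart.

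Library totals lay between 30548473 and 32107917 counts. *Lats1* was lower in libraries labelled L1L2-AKO (82.9 ± 9.90 against 40.2 ± 1.16 CPM, SD, n = 3 each) but *Lats2* was higher (76.4 ± 8.68 against 119 ± 20.6 CPM). Each direction given here is that of the labels, which the *Lats2* level does not itself bear out. The *Lats2* call was lost without L1L2-FF replicate 1 or 3 or L1L2-AKO replicate 2 or 3 (adjusted p between 0.0651 and 0.104, edgeR). Counts per gene pool all exons, so the loss of the floxed exons could not be read from either value. Of 12 mature adipocyte markers, all were present at 65.1 CPM or more on average in either genotype. By edgeR, 5 of them were lower in libraries labelled L1L2-AKO, against 7.18% of all genes tested. DESeq2 called 8 of them lower and limma-voom 5, and 8 had a lower level with an unadjusted p under 0.05. Endothelial markers were also present, with a sum over 12 genes of 2610 to 3344 CPM in L1L2-FF and 1482 to 3260 CPM in libraries labelled L1L2-AKO. Of these 12, 0 passed edgeR's test, which 16.5% of all genes tested passed. *Erg* had an unadjusted p under 0.05, 1 gene of the 12 was called lower by DESeq2 and 0 by limma-voom, and the 3 with the highest mean CPM, *Cdh5*, *Pecam1* and *Cd93*, had log2 fold changes of -0.29, -0.47 and -0.30.

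*Rgs5*, *Kcnj8* and *Abcc9* were each lowest in replicate 3 of either genotype, and their promoters are shown for that reason. Promoters run from 250 bases before to 50 bases after the RefSeq start (GRCm38.p6), and those of 7 of the 10 genes were searched. *Myh11*, *Higd1b* and *Pdgfrb* were left out of this search, so nothing is said of their promoters. The *Rgs5* promoter lies at chr1:169655251-169655550 on the plus strand, *Kcnj8* at chr6:142571565-142571864 on the minus strand and *Abcc9* at chr6:142702225-142702524 on the minus strand. Capitals mark a match to the TEAD core GGAATG. TEAD proteins are the DNA-binding partners of YAP and TAZ, which the LATS kinases restrain.
Rgs5: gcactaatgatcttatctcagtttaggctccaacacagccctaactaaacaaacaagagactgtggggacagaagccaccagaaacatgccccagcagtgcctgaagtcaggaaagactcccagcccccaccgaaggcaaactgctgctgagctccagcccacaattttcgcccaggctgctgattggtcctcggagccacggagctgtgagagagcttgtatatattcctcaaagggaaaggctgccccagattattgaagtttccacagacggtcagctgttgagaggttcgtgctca
Kcnj8: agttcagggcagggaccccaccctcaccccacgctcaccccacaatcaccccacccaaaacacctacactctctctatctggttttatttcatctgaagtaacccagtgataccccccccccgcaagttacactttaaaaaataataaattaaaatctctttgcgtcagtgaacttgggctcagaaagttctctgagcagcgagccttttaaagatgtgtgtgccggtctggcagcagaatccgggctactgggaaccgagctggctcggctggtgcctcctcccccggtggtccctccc
Abcc9: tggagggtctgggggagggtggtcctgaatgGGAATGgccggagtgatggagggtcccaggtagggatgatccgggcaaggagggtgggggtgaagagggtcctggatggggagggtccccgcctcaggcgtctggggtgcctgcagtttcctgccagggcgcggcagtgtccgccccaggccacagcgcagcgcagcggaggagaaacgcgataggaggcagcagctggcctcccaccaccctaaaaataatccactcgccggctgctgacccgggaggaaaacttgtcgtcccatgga
*Abcc9* held the only match among the 7 promoters upstream of its start, and 14.7% of all promoters in the table hold GGAATG on either strand. None of the 7 held the RBPJ core GTGGGAA, found in 6.38% of promoters, or a CArG box, found in 1.63%. RBPJ is the DNA-binding partner of NOTCH receptors, and CArG boxes bind the serum response factor of contractile genes.

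Levels are given as CPM (counts scaled to a common library size) after TMM scaling, and between genes only per kilobase of exon. In L1L2-FF, *Mcam* had the highest level per length, at 174 ± 17.3 CPM per kb (SD, n = 3). It was followed by *Rgs5* at 121 ± 24.7 and *Pdgfrb* at 30.7 ± 6.24 CPM per kb. *Abcc9*, *Kcnj8*, *Notch3* and *Cspg4* came next, from 19.4 down to 12.4 CPM per kb, and each of these overlapped with its neighbour in this order over the 3 libraries. The lowest were *Des* at 8.14, *Myh11* at 6.0 and *Higd1b* at 3.69 CPM per kb, with no overlap between *Des* and *Myh11* or between *Myh11* and *Higd1b*. In libraries labelled L1L2-AKO, *Mcam* stayed first at 202 ± 21 CPM per kb, *Rgs5* was at 51.9 ± 17.3 and overlapped with *Pdgfrb* at 42.0 ± 3.56, and *Notch3* came next at 28.4 ± 3.85, apart from *Abcc9* at 10.6 ± 3.54.

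**Figure D1:**
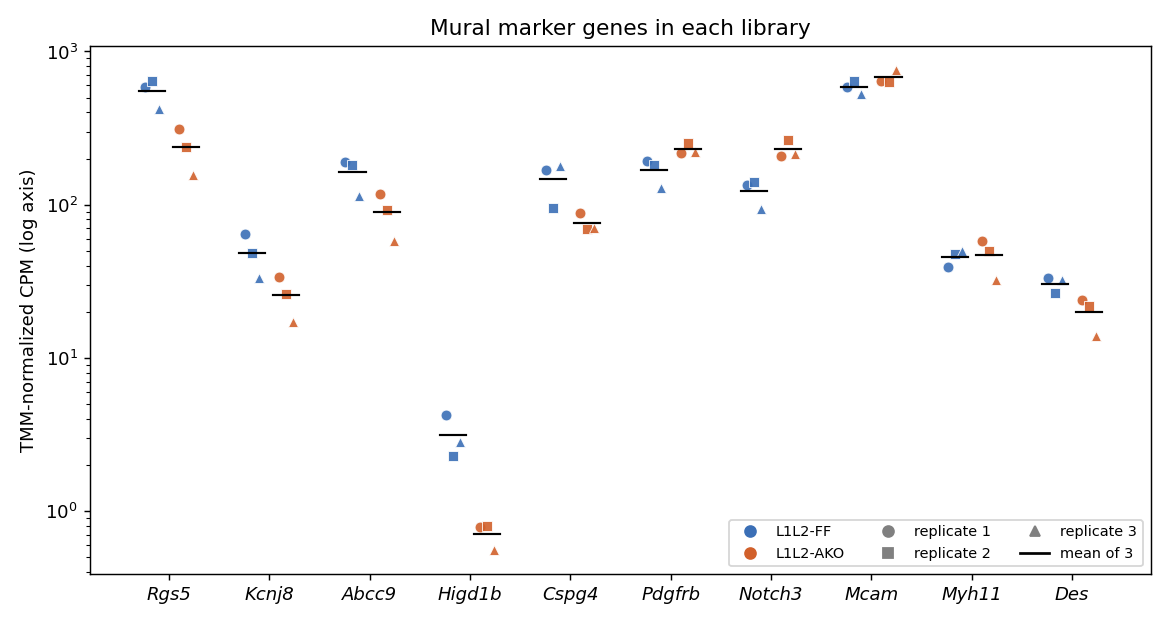
TMM-normalized CPM of the 10 genes on a log axis, with 1 point per library (blue for L1L2-FF, orange for L1L2-AKO, the marker shape giving the replicate number) and a line at the mean of 3. *Rgs5*, *Higd1b*, *Cspg4* and *Des* have all orange points below all blue points, and *Pdgfrb* and *Notch3* have all orange points above.

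*Rgs5* encodes a regulator of G protein signalling and is a widely used pericyte marker. The gene lies at chr1:169655501-169695813 on the plus strand (mm10, GENCODE M21). Its level was 586, 639 and 423 CPM in L1L2-FF replicates 1 to 3 and 314, 238 and 156 CPM in libraries labelled L1L2-AKO. The groups did not overlap, and the spread was wide within each, with the highest library 1.51 times the lowest in L1L2-FF and 2.01 times in those labelled L1L2-AKO. The level was 2.33-fold lower (log2 fold change -1.22, standard error 0.267, adjusted p = 0.0188, quasi-likelihood test of edgeR, adjusted over all genes tested by Benjamini and Hochberg). Across the genome, 16.5% of genes passed this test, 9.28% higher and 7.18% lower, against 4 of the 10 mural genes, 1 higher and 3 lower. The *Rgs5* call was lost without L1L2-FF replicate 1 (adjusted p = 0.0744) or without L1L2-AKO replicate 2 (adjusted p = 0.0732).

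*Kcnj8* and *Abcc9* encode the pore KIR6.1 and the regulatory subunit SUR2 of a potassium channel of the ATP-sensitive family. They are neighbours on chromosome 6, separated by 16247 bases. *Kcnj8* was at 63.9, 48.4 and 33.2 CPM in L1L2-FF and at 33.7, 26.0 and 17.1 CPM in libraries labelled L1L2-AKO. *Abcc9* was at 190, 182 and 115 CPM against 117, 91.6 and 58.3 CPM. For both genes L1L2-FF replicate 3 was the lowest of its group and fell just below the highest library labelled L1L2-AKO, so the groups overlapped. The log2 fold changes were -0.92 for *Kcnj8* (95% interval -1.59 to -0.25, adjusted p = 0.0673) and -0.87 for *Abcc9* (95% interval -1.51 to -0.23, adjusted p = 0.0707), both short of the threshold in edgeR's test. DESeq2's Wald test called both, with adjusted p = 0.017 and 0.0182. The other subunits of this channel family, *Kcnj11* and *Abcc8*, were too low to test, and *Kcnj11* had no count in any library.

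The counts of these genes were also set against each other inside each library. *Kcnj8* had 0.336, 0.266 and 0.289 counts per count of *Abcc9* in L1L2-FF and 0.287, 0.284 and 0.294 in libraries labelled L1L2-AKO. Relative to *Rgs5*, *Abcc9* was at 0.324, 0.285 and 0.271 in L1L2-FF and at 0.374, 0.384 and 0.373 in libraries labelled L1L2-AKO, where *Rgs5* itself varied 2.01-fold, so the genotypes did not overlap in this ratio. *Kcnj8* per *Rgs5* was at 0.109, 0.0758 and 0.0783 in L1L2-FF and at 0.107, 0.109 and 0.11 in libraries labelled L1L2-AKO, with overlap. In all 3 ratios the L1L2-FF libraries lay further apart than those labelled L1L2-AKO. These ratios need no scaling between libraries. They were chosen after the values were seen and are given without a test.

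*Higd1b* encodes a small protein related to the hypoxia-inducible mitochondrial protein HIGD1A and is a marker of pericytes. The gene lies at chr11:102835849-102838040 on the plus strand. It had 133, 74 and 88 counts in L1L2-FF, and libraries labelled L1L2-AKO had 26, 25 and 16 counts. This is 3.12 ± 1.01 against 0.712 ± 0.133 CPM (SD, n = 3 each). Counts in each library labelled L1L2-AKO were well below every L1L2-FF count. The log2 fold change was -2.12 (standard error 0.337, adjusted p = 0.00506, edgeR with Benjamini-Hochberg adjustment), a 4.35-fold difference and the widest of the 10. The call held with each library left out in turn, with adjusted p of at most 0.0263. Its relative *Higd1a*, which most cells make, did not pass, at a log2 fold change of -0.48 (95% interval -1.10 to 0.14).

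*Cspg4* encodes the proteoglycan NG2 on the surface of pericytes, at chr9:56865033-56899870 on the plus strand. Its level was 169, 95.1 and 180 CPM in L1L2-FF and 88.8, 69.7 and 70.6 CPM in libraries labelled L1L2-AKO. L1L2-FF replicate 2 stood near the other genotype, and the groups did not overlap. The log2 fold change was -0.95 (standard error 0.237, adjusted p = 0.0301, edgeR with Benjamini-Hochberg adjustment). Leaving out 1 library ended the call in 4 of 6 cases, with adjusted p = 0.112 and 0.079 without L1L2-FF replicates 1 and 3, and 0.116 and 0.115 without L1L2-AKO replicates 2 and 3. Glial cells of peripheral nerves can also carry NG2. Of 12 Schwann cell markers, 6 were lower by edgeR and 6 did not pass, against 7.18% lower over all genes tested. All 12 had a lower level with an unadjusted p under 0.05, and DESeq2 called 12 lower and limma-voom 4. Their median log2 fold change was -1.76, and their sum was 616 to 1421 CPM in L1L2-FF and 196 to 448 CPM in libraries labelled L1L2-AKO. That sum was highest in L1L2-FF replicate 2, where *Cspg4* was lowest of its group, and the part of these cells in the *Cspg4* result was not tested.

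*Notch3* and *Pdgfrb*, the receptors through which endothelium signals to mural cells, had higher levels in libraries labelled L1L2-AKO. *Notch3*, at chr17:32120820-32166852 on the minus strand, was at 134, 141 and 93.9 CPM in L1L2-FF and at 208, 265 and 216 CPM in libraries labelled L1L2-AKO, with no overlap. It rose 1.87-fold (log2 fold change 0.90, standard error 0.182, adjusted p = 0.0136, edgeR with Benjamini-Hochberg adjustment), and without L1L2-AKO replicate 2 the adjusted p was 0.0576. *Pdgfrb* was at 193, 181 and 129 CPM against 216, 252 and 222 CPM, again with every library labelled L1L2-AKO above every L1L2-FF library. At a log2 fold change of 0.45 it did not pass (95% interval 0.07 to 0.84, adjusted p = 0.109). Groups without overlap were found for 6 of the 10 genes, against 36.4% of all genes tested.

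Counts of the receptors were compared with those of *Rgs5* in the same way. *Pdgfrb* had 0.330, 0.284 and 0.305 counts per count of *Rgs5* in L1L2-FF, and 0.689, 1.06 and 1.42 in libraries labelled L1L2-AKO. *Notch3* had 0.228, 0.221 and 0.222 counts per *Rgs5* count against 0.662, 1.11 and 1.38. *Notch3* per *Pdgfrb* moved less, from 0.691 to 0.780 in L1L2-FF and from 0.961 to 1.05 in libraries labelled L1L2-AKO. These pairs, too, were picked with the values known, so the ratios are a description.

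*Mcam*, which encodes the adhesion molecule CD146 of mural cells and endothelium, was at 588, 641 and 525 CPM in L1L2-FF and at 645, 629 and 758 CPM in libraries labelled L1L2-AKO. The groups overlapped, and at a log2 fold change of 0.21 the gene did not pass (95% interval -0.13 to 0.56, adjusted p = 0.386). An antisense gene over *Mcam*, *Gm10687*, reached 948 counts, and without a stated strand setting reads of the pair cannot be separated. *Notch3* and *Des* also have an antisense neighbour in the table, with at most 13 counts.

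*Myh11* encodes the smooth muscle myosin heavy chain, the most specific marker of the differentiated smooth muscle cell. Its level was 39.5, 47.4 and 49.9 CPM in L1L2-FF and 58.1, 49.8 and 32.2 CPM in libraries labelled L1L2-AKO, which held both the highest and the lowest value. The log2 fold change was 0.04 (95% interval -0.45 to 0.52, adjusted p = 0.935 in edgeR's test). *Des* encodes desmin, the intermediate filament of muscle and of many pericytes. It was at 33.0, 26.6 and 32.0 CPM in L1L2-FF and at 24.0, 21.8 and 13.9 CPM in libraries labelled L1L2-AKO, without overlap and short of the threshold (log2 fold change -0.62, 95% interval -1.09 to -0.14, adjusted p = 0.0795, edgeR). DESeq2 called it with adjusted p = 0.0448. Skeletal muscle also makes desmin. Its 12 markers summed to 12.9 to 23.6 CPM in L1L2-FF and 4.25 to 11.7 CPM in libraries labelled L1L2-AKO, and 0 of the 8 that could be tested passed edgeR's test, with 1 higher and 3 lower at an unadjusted p under 0.05 and 3 called lower by DESeq2. The share of *Des* counts from muscle was not tested.

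**Figure D2:**
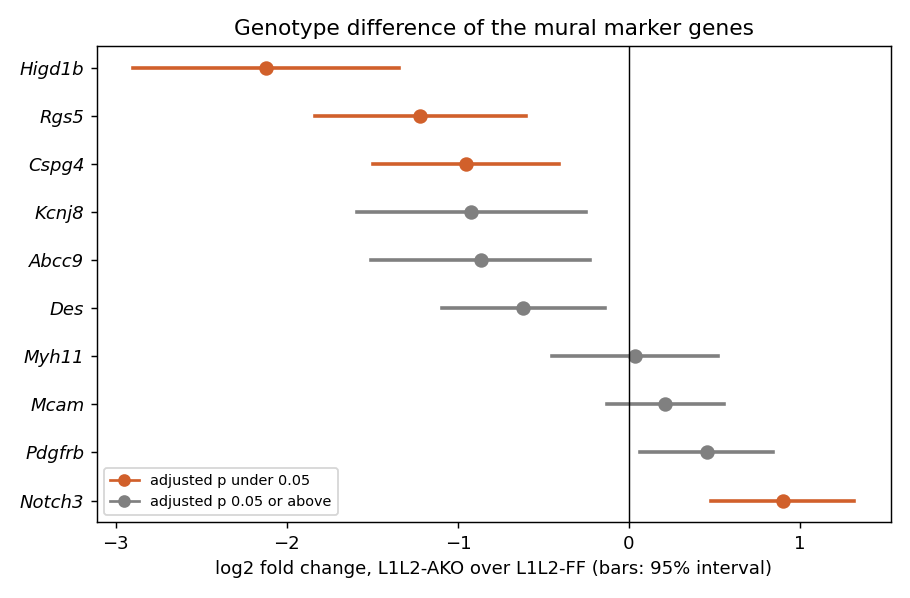
Log2 fold change of each of the 10 genes between libraries labelled L1L2-AKO and L1L2-FF, with 95% intervals from edgeR's quasi-likelihood fit. Orange marks an adjusted p under 0.05, reached by *Rgs5*, *Higd1b* and *Cspg4* below 0 and by *Notch3* above 0, and the intervals of *Mcam* and *Myh11* include 0.

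The libraries differed in the level of endothelial markers. *Rgs5*, *Kcnj8* and *Abcc9* were lowest of their genotype in replicate 3 of each, where the summed endothelial markers were lowest too, at 2610 CPM in L1L2-FF replicate 3 and 1482 CPM in L1L2-AKO replicate 3. Per summed endothelial CPM, *Rgs5* was at 0.175, 0.204 and 0.162 in L1L2-FF and at 0.0962, 0.0931 and 0.105 in libraries labelled L1L2-AKO, closer together within that genotype than in CPM. *Abcc9* was at 0.0569, 0.0581 and 0.0439 against 0.0360, 0.0357 and 0.0393, and its groups no longer overlapped. *Notch3* was at 0.04, 0.0451 and 0.036 against 0.0637, 0.104 and 0.146. When the endothelial sum replaced the library size in the edgeR fit, an alternative added after the data were seen, all genes had a median of 0.42 on the log2 scale and 8.63% of genes were called. *Higd1b* kept its call there (log2 fold change -1.75, adjusted p = 0.0242). The values for *Rgs5* were -0.88 and 0.381, for *Cspg4* -0.55 and 0.568, and for *Notch3* 1.37 and 0.0652.

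**Figure D3:**
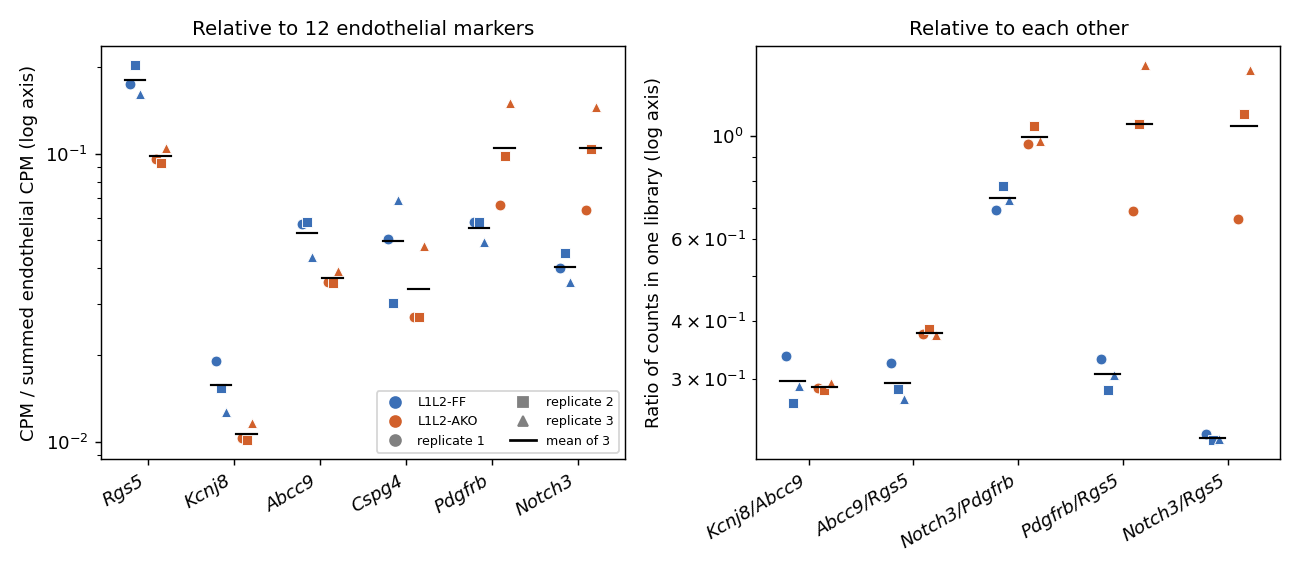
Ratios formed inside each library, on log axes: on the left the CPM of 6 genes over the summed CPM of 12 endothelial markers, and on the right the counts of one gene over those of another (blue for L1L2-FF, orange for L1L2-AKO, lines at the mean of 3). *Kcnj8* per *Abcc9* overlaps between the genotypes, while *Pdgfrb* per *Rgs5* goes from at most 0.330 to at least 0.689.

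Beyond the 10 genes, 28 other genes known from pericytes were listed, of which 24 could be tested. Of these, 3 were higher, 2 were lower and 19 did not pass, with a median log2 fold change of -0.29 against -0.02 for all genes tested. Of all genes tested, 9.28% were higher and 7.18% lower. The lower genes were *Art3*, an ADP-ribosyltransferase family member, from 372 to 119 CPM (log2 fold change -1.64, adjusted p = 0.00119 in edgeR's test), and *Vtn*, the matrix protein vitronectin, from 10.1 to 2.94 CPM (-1.77, adjusted p = 0.0206). *Kcne4*, a potassium channel subunit, rose from 7.21 to 36.6 CPM (log2 fold change 2.34), the angiotensin receptor gene *Agtr1a* from 28.6 to 47.9 CPM (0.74), and *P2ry14*, a receptor for UDP-sugars, from 0.454 to 2.73 CPM (2.58). Across L1L2-AKO replicates 1 to 3, *Kcne4* (15.7, 38.6 and 55.5 CPM), *P2ry14* (1.086, 3.235 and 3.875) and *Art3* (98.9, 111 and 148) climbed. *Vtn* (3.44, 3.08 and 2.30) fell, as *Rgs5* did, and *Agtr1a* (46.0, 51.8 and 45.8) did neither. Which cells these counts came from was not tested. *Steap4* and *Postn*, the most abundant per length beside *Art3*, had log2 fold changes of -0.33 and -0.29 that did not pass. *Steap4* is also made by adipocytes and *Postn* by fibroblasts. Without L1L2-FF replicate 1 the adjusted p was 0.0665 for *Vtn* and 0.0528 for *P2ry14*. Without L1L2-AKO replicate 2 or 3 it was 0.0746 or 0.0841 for *Vtn* and 0.0961 or 0.0644 for *Agtr1a*.

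Of 22 genes of smooth muscle, contractile and other, listed beside *Myh11*, 20 were tested. Of these, 6 were higher, 0 were lower by edgeR (adjusted p under 0.05) and 14 did not pass, with a median log2 fold change of 0.19. DESeq2 and limma-voom also called 0 lower, and 1 gene, *Pcp4l1*, had an unadjusted p under 0.05 with a lower level. Over all genes tested, 9.28% were higher and 7.18% lower by edgeR. *Acta2*, the smooth muscle actin shared with myofibroblasts, and *Tagln*, the actin-binding protein transgelin, had log2 fold changes of 1.78 and 2.67. The others were *Kcnab1* at 4.24, *Map3k7cl* at 2.13, *Synpo2* at 1.64 and *Tpm1* at 0.78. The *Synpo2* call was lost without L1L2-FF replicate 1 or 3 or L1L2-AKO replicate 2 or 3 (adjusted p between 0.0535 and 0.112), and that of *Tpm1* without L1L2-FF replicate 1 or L1L2-AKO replicate 2 or 3 (adjusted p between 0.0622 and 0.0726). *Sncg*, the most abundant per length and also an adipocyte gene, did not pass, at a log2 fold change of 0.23. *Myocd*, *Cnn1*, *Lmod1* and *Smtn* of this list, named here after their values were seen, did not pass, with log2 fold changes of 0.76, -0.37, -0.35 and -0.36. The genotypes did not overlap for *Myocd* (higher) and *Lmod1* (lower). Per count of *Acta2*, *Myh11* had 0.625, 0.988 and 0.771 counts in L1L2-FF and 0.430, 0.206 and 0.141 in libraries labelled L1L2-AKO. This pair, too, was picked with the values known. *Acta2* was higher there while *Myh11* itself had a log2 fold change of 0.04, so the ratio follows *Acta2*.

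Among 30 ligands, receptors and targets that join endothelium and mural cells, 5 were higher, 0 were lower by edgeR and 25 did not pass, with a median log2 fold change of 0.02. Across all genes tested, 16.5% passed, a share close to 5 of 30. With a lower level, *Angpt1*, *Angpt2* and *Tek* of the angiopoietin pathway, 3 genes, had an unadjusted p under 0.05, and DESeq2 called 2 genes of the list lower and limma-voom 1. *Jag1*, which encodes the ligand for NOTCH3, rose from 59.8 to 118 CPM (log2 fold change 0.99, adjusted p = 0.00334 in edgeR's test). The listed Notch target genes *Heyl*, *Hes1*, *Hey1*, *Hey2* and *Nrarp* had log2 fold changes of 0.31, 0.26, 0.15, 0.45 and -0.29, none of which passed. *Pdgfb*, the main ligand of PDGFRB, was at 58.8 CPM in both genotypes (95% interval of the log2 fold change -0.69 to 0.69). Of the other platelet-derived growth factors, *Pdgfa*, whose product binds PDGFRA, rose from 20.5 to 46.1 CPM (1.17) and *Pdgfd*, whose product binds PDGFRB, from 17.3 to 33.3 CPM (0.94). The *Pdgfd* call was lost without L1L2-FF replicate 1 or 3 or L1L2-AKO replicate 2 or 3 (adjusted p between 0.0937 and 0.125). *Ednrb* and *S1pr2*, receptors for endothelin and sphingosine 1-phosphate, both had log2 fold changes of 0.98. The abundant endothelial receptors *Eng* and *S1pr1* were at 0.02 and 0.03 and did not pass. *Pdgfb* and the Notch targets were singled out for their role after their values were seen.

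**Figure D4:**
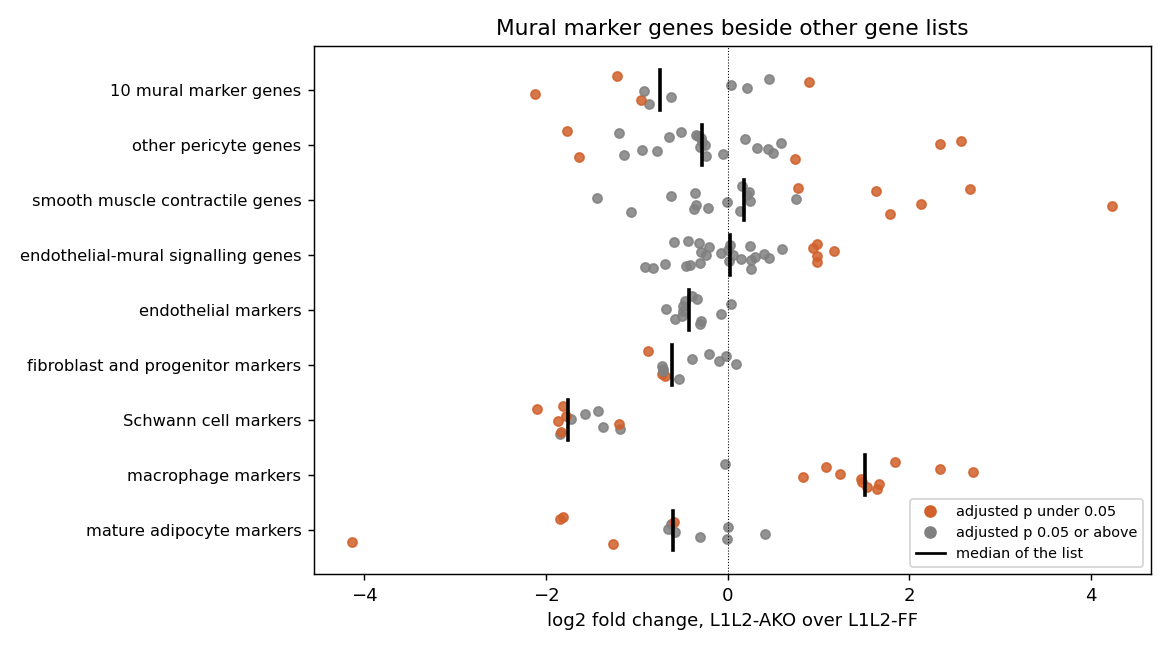
Log2 fold change of each tested gene, by list, with the 10 mural genes at the top (orange for an adjusted p under 0.05 in edgeR's test, grey otherwise, a black line at the list's median). The mural genes have a median of -0.74 with members on both sides of 0, between Schwann cell markers at -1.76 and macrophage markers at 1.51.

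Partners of the 10 genes, such as other intermediate filaments and myosins, included 12 testable genes of 16. Of these, 1 was higher, 0 were lower by edgeR and 11 did not pass, against 9.28% higher and 7.18% lower over all genes tested. *Rgs16*, a relative of *Rgs5*, rose from 41.4 to 101 CPM (log2 fold change 1.28, adjusted p = 0.0434, edgeR), a call lost without L1L2-FF replicate 1 or 3 or L1L2-AKO replicate 2 or 3 (adjusted p between 0.091 and 0.141). With a lower level, 1 gene had an unadjusted p under 0.05, the nonmuscle myosin gene *Myh10*, and DESeq2 called 1 gene lower. *Vim*, *Col6a1* and *Higd2a*, the most abundant per length, had log2 fold changes of 0.58, 0.26 and 0.23 that did not pass.

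Markers of neighbouring cells moved in different directions, beside 9.28% higher and 7.18% lower over all genes tested. Fibroblast and progenitor markers, a group that also makes *Pdgfrb*, had 3 of 12 lower, 0 higher and a median of -0.61. DESeq2 called 5 of them lower, and 8 had a lower level with an unadjusted p under 0.05. Their sum was 2329 to 3002 CPM in L1L2-FF and 1542 to 2202 CPM in libraries labelled L1L2-AKO. *Col15a1* alone averaged 1599 and 975 CPM there, so this 1 gene makes up a large part of the sum. *Pdgfrb* per count of *Pdgfra*, the fibroblast receptor, was 4.67, 2.90 and 5.12 in L1L2-FF and 5.57, 6.44 and 6.58 in libraries labelled L1L2-AKO. Macrophage markers had 11 of 12 higher, with a sum of 272 to 527 CPM against 981 to 1095 CPM, and mature adipocyte markers had 5 of 12 lower, with 23050 to 24960 CPM against 13970 to 17330 CPM. No marker in these lists was at 0 in all libraries. The part of these cells in the mural gene levels was not tested.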

How the data were processed

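The 6 libraries were assigned to L1L2-FF (3) and L1L2-AKO (3) by the submitters' labels. Nothing in the labels says that same-numbered libraries of both genotypes are linked. The authors isolated mRNA with oligo(dT), aligned the reads to mm10 with HISAT2 (version 2.1.0 in the submitters' processing notes) and used StringTie (1.3.5). What the authors deposited are whole-number read counts for each gene symbol, not normalized. CPM are counts per library total after TMM scaling. The annotation, the counting program and its strand setting are not given in the sources used here.

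Genes were kept by filterByExpr in edgeR 4.0.16 (minimum count 10, minimum total 15), scaled by TMM and tested with the quasi-likelihood F test, with Benjamini-Hochberg adjustment over all 15674 genes and a threshold of 0.05. Fold changes are L1L2-AKO over L1L2-FF, standard errors are the fold change over the square root of F, and SDs are over 3 libraries. The common biological coefficient of variation was 0.206, and at these totals the spread between libraries, not counting error, limits most values. DESeq2 1.42.0, limma 3.58.1 (voom), other scalings and filters, a replicate block and each library left out were alternatives, and the scripts were tested on simulated data. Gene positions and exon lengths came from GENCODE M21, and promoters from the RefSeq table of GRCm38.p6, which was searched on both strands.

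The members and lists were chosen with earlier results of these data known. Named are the 10 genes, *Lats1* and *Lats2*, up to 6 called genes of each pathway list and its 3 most abundant per length, and the 3 endothelial markers with the highest mean CPM. *Col15a1* is named as the fibroblast and progenitor marker with the highest mean CPM. Other genes, chosen for their role or their unadjusted p after their values were seen, are *Myocd*, *Cnn1*, *Lmod1*, *Smtn*, *Pcp4l1*, *Angpt1*, *Angpt2*, *Tek*, *Heyl*, *Hes1*, *Hey1*, *Hey2*, *Nrarp*, *Pdgfb*, *Pdgfra*, *Higd1a*, *Kcnj11*, *Abcc8*, *Myh10* and *Erg*.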

Additional observations from a re-analysis of the deposited data

How the results depend on the processing

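*Higd1b* kept its call in all 8 alternative scalings, filters, tools and blocks, in all 6 fits without a library and with the endothelial sum as library size. *Rgs5*, *Cspg4* and *Notch3* kept theirs in the same 8 and lost it without single libraries as given above. The *Myh11* log2 fold change lay between -0.15 and 0.25 without single libraries and was -0.06, -0.15 and -0.01 without L1L2-FF replicate 1, L1L2-AKO replicate 1 and L1L2-AKO replicate 2. The cause of these changes was not tested.

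Of the 10 mural genes, 1 was higher and 3 lower. The number lower was 6 by DESeq2 and 5 with no filter on low counts, and with the endothelial sum as library size 0 were higher and 1 lower. Without single libraries, 0 to 1 were higher and 1 to 5 lower, with *Kcnj8* and *Abcc9* called without L1L2-FF replicate 3 (adjusted p = 0.0406 and 0.0453) and without L1L2-AKO replicate 1 (0.0448 and 0.0409). Other pericyte genes lower numbered 5 by DESeq2 and 1 with the endothelial sum, against 2, and 1 to 4 without single libraries. Signalling genes lower numbered 2 by DESeq2, 1 by limma-voom and 1 with no filter, against 0, and 0 to 1 without single libraries. Smooth muscle genes lower numbered 0 to 1 without single libraries. Calls lost under another tool or scaling were those of *Vtn* (adjusted p = 0.0522) and *Pdgfd* (0.0604) by limma-voom and of *Rgs16* with library size alone (0.0537) or upper-quartile factors (0.052). With the endothelial sum the adjusted p was 0.205 for *Art3*, 0.0711 for *Agtr1a*, 0.106 for *Tpm1*, 0.533 for *Lats1* and 0.126 for *Lats2*. Across all genes, DESeq2 called 3500 (22.3%) and the fit with no filter 2630 (11%), against 2580 (16.5%). The endothelial-scaled fit called 1353 and the fits without a library 1281 to 2845.

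The replicate numbers are shared between the genotypes, and whether same-numbered libraries are linked is not known. Deviations from the genotype means of same-numbered libraries correlated at 0.188, 0.255 and -0.054 across genes. Those of differently numbered libraries correlated between -0.324 and 0.211. With the replicate block, 1 mural gene was higher and 5 were lower, the additional ones being *Kcnj8* and *Abcc9*, 4 other pericyte genes and 2 signalling genes were lower, 4 signalling genes were higher against 5, with *Pdgfd* lost (adjusted p = 0.05 after rounding), and 2514 genes were called in all. Each library is a pool, so animals within it add no replicates, and *Higd1b* rests on 16 to 26 counts per library in the libraries labelled L1L2-AKO.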
